A study of Schizosaccharomyces pombe with 12 samples.

Results

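The genes described here are 107 genes of excision repair, mismatch repair and general DNA repair in the fission yeast Schizosaccharomyces pombe, of 5160 genes in the deposited tables. They were chosen by annotation and not by a limit on their values, though earlier results of these data were known. Of 167 genes whose gene ontology process holds nucleotide excision repair, base excision repair, mismatch repair or the broad term DNA repair, 57 were left out for a double-strand break or recombination term and 3 more as checkpoint genes. Among the 107 members, 18 held the nucleotide excision term, 10 the base excision term and 11 the mismatch term, with 5 members in more than 1 of these. The name fits 33 members by these terms. The other 74 held only the broad repair term, and they include ubiquitin ligases, chromatin remodelling subunits, histone H2A genes and a ribosomal protein gene.

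Excision repair removes a damaged stretch of a DNA strand and copies the gap from the other strand. In nucleotide excision repair, recognition factors and the helicases of TFIIH open the DNA around a bulky lesion and nucleases cut on both sides. In base excision repair a glycosylase removes a single altered base and an endonuclease cuts the abasic site, while in mismatch repair MutS and MutL proteins find replication errors and direct the removal of the new strand. Fission yeast also has a separate ultraviolet damage endonuclease, Uve1.

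RNA was sequenced in 12 libraries, 3 for each of 3 histone H2B mutants and 3 for the wild type (WT). Each mutant carries H2B with lysines 5, 10 and 15 substituted together, by alanine in the A mutant, by glutamine in the Q mutant and by arginine in the R mutant. For A replicate 2 the genotype label names position 16 where the other A libraries have 15. The labels describe the material as whole cells and give no growth condition, DNA damaging treatment or mating type. Whether replicates came from separate cultures is not stated, and a p-value then reflects only how far these libraries differ. Other differences between the strains cannot be told apart from the substitutions. A change in RNA per cell and a change in the share of cells of a kind cannot be told apart in such data.

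Total counts per library lay between 15329416 and 20050394, and 3 counts corresponded to 0.15 to 0.196 CPM (CPM is each count scaled to its library's total). The mutant libraries spread more widely than those of WT. Over the members, the SD of a library's log2 deviations from its group mean lay between 0.152 and 0.326 in the mutants, with R replicate 2 the highest, against 0.0828 to 0.132 in WT. The gene for H2B itself, htb1, stood at 10855 ± 5784 CPM in A, 1246 ± 111 in Q and 5427 ± 196 in R, against 3274 ± 192 in WT (SD, n = 3 each), and since the substitutions do not delete it this level does not check the labels. Of 12 genes that mark entry into sexual differentiation, 3 rose in A, 6 rose and 2 fell in Q, and 6 rose and 1 fell in R. By the same test, described below, 4.16%, 34.5% and 24.2% of all genes changed in either direction. Those that fell were map3 in Q and R (log2 fold changes -1.29 and -1.21) and rep1 in Q (-0.66). The summed level of the 12 genes ranged from 405 to 513 CPM in A, 461 to 706 in Q and 628 to 858 in R, against 368 to 392 CPM in WT. The lowest of the 12 in WT, mei2, averaged 3.12 ± 0.841 CPM there and 44.2 ± 15.5 CPM in Q. The part of these marker changes, which went both ways, in the values of the repair genes was not tested.

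Of the 107 members 106 passed the filter on low counts. The exception, spt16, a subunit of the FACT histone chaperone, had 0 counts in every library, and in the reference assembly its whole length lies over nop2 on the opposite strand. In WT the mean level per gene length, in the deposited FPKM, ran from 1.04 for tel1, the ATM kinase, to 3808 for SPAC23H3.15c, a protein known only from fission yeasts. The median of the members was 22.4 FPKM and that of all genes 37.6 FPKM. By the same measure the nucleotide excision genes lay between 7.73 FPKM for rad13 and 140.3 FPKM for rhp23, the base excision genes between 5.64 FPKM for apn2 and 31.3 FPKM for rad2, and the mismatch genes between 8.19 FPKM for msh3 and 138.1 FPKM for pcn1.

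The first question was which repair transcripts differed from WT in each mutant. Calls come from edgeR's quasi-likelihood test, fitted to all genes of all libraries, with an adjusted p (Benjamini-Hochberg) under 0.05. Changes are given as log2 fold changes of the mutant over WT, with an approximate SE, and called log2 change in brackets; values after ± are SDs over 3 libraries. In A, 3 of 106 members were called (2.83%), against 4.16% of all genes tested, with 2 higher (2.73% of all genes were called higher) and 1 lower (1.43% of all genes). In Q, 44 members were called (41.5%), against 34.5% of all genes, with 22 higher and 22 lower, where 18.6% of all genes were called higher and 15.8% lower. In R, 25 members were called (23.6%), against 24.2% of all genes, with 11 higher and 14 lower, where 13.2% of all genes were called higher and 11.1% lower. The share of members called was thus near that of all genes in A and R and somewhat above it in Q. The median log2 fold change of the members was 0.01 in A, -0.05 in Q and -0.15 in R, beside 0.01, 0.02 and -0.01 for all genes.

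The changes were mostly modest and went both ways. Of the called members, 1 in A, 12 in Q and 7 in R changed by 2-fold or more. Of the members, 53 were called in at least 1 mutant and 53 in none. Neither these counts nor those at 2-fold were made for all genes, so they show nothing particular to the members. The 3 comparisons use the same WT libraries and are therefore not independent. rfp2, a RING finger subunit of a ubiquitin ligase that acts on SUMO-modified proteins, was the 1 member called in all 3 mutants.

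The counts rested on few libraries. The 25 calls of R became 10 without R replicate 2, and 6, 12 and 7 without WT replicates 1, 2 and 3. Among the 3 R libraries, replicate 2 was the highest for all 11 members called higher and the lowest for 12 of the 14 called lower. Over all 106 members tested, called or not, it was the highest R library for 44 and the lowest for 40. The same was not counted over all genes. The 44 calls of Q became 26 without WT replicate 1 and 23 without WT replicate 3. The 3 calls of A became 0 without A replicate 2 or any 1 WT library and 1 without A replicate 1 or 3, but 18 when R replicate 2, which shares in the estimate of the spread, was left out, and 30 in a fit of A and WT alone. Calls kept in all 12 fits with 1 library left out numbered 0 of 3 in A, 20 of 44 in Q and 6 of 25 in R. The share of all genes called in fits with fewer libraries is not given, here or below. Calls of genes that are not members, such as exo1, rad16 and saw1, were not followed in these fits. How far they rest on 1 library is therefore not known.

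**Figure D1:**
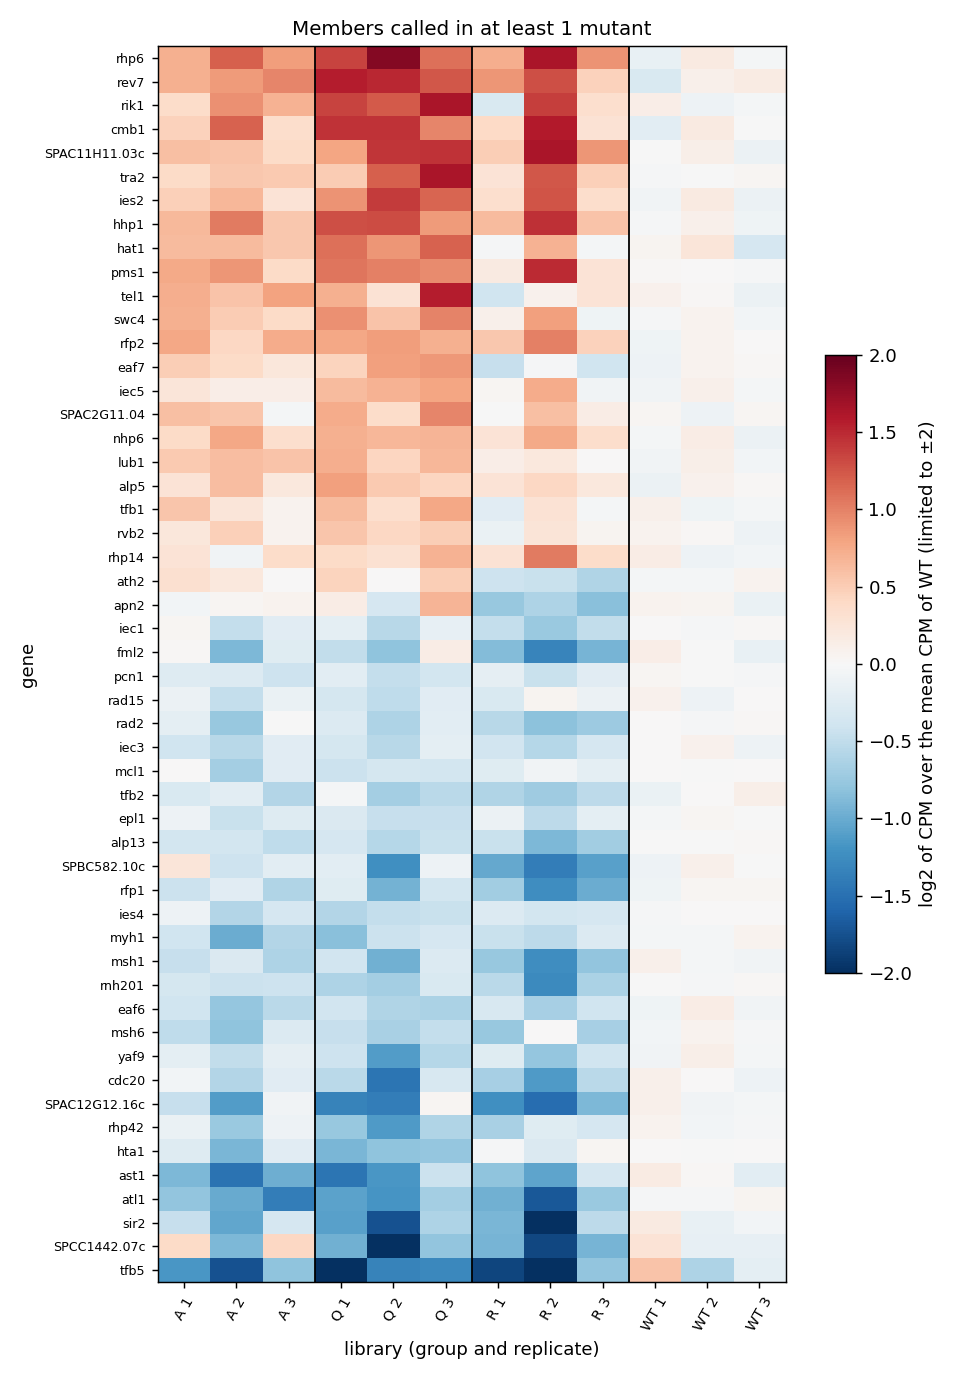
The level of 52 members called in at least 1 mutant (rows, ordered by the log2 fold change in Q) in each of the 12 libraries (columns), as the log2 of its CPM over the mean CPM of WT, with the colour scale limited to 2 in either direction. Red is higher and blue lower than WT; R replicate 2 holds the strongest colours of the 3 R libraries for most genes called in R.

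Of 18 nucleotide excision repair members, 0 carried a call in A (against 4.16% of all genes), 4 in Q (22.2%, against 34.5%; 1 higher, 3 lower) and 4 in R (22.2%, against 24.2%; 1 higher, 3 lower). Their median log2 fold change was -0.03 in A, -0.14 in Q and -0.15 in R. Damage recognition held 1 call in Q, lower, and 1 call in R, higher, of different genes. rhp42, a homologue of the lesion sensor XPC, had 49.3, 32.3 and 50.5 CPM in A, 32.0, 24.6 and 35.8 CPM in Q and 34.6, 45.8 and 43.2 in R, against 57.0, 52.4 and 53.4 in WT. All Q libraries lay below all WT libraries. rhp42 fell in Q (log2 change -0.85, SE 0.17, adjusted p = 0.00584), a call kept whichever library was left out, with log2 fold changes of -0.27 in A and -0.31 in R that were not called. Its paralogue rhp41, the other XPC homologue, had log2 fold changes of -0.01, -0.24 and 0.01 in A, Q and R, none of them called.

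rhp14, the homologue of the damage verifier XPA, had 22.1, 17.5 and 23.7 CPM in A, 23.9, 22.8 and 29.7 CPM in Q and 22.5, 37.6 and 23.6 in R, against 20.3, 17.2 and 17.6 in WT. The highest value was that of R replicate 2, and the other R libraries lay close to those of Q. rhp14 rose in R (log2 change 0.69, SE 0.19, adjusted p = 0.0268) and had a log2 fold change of 0.44 in Q (adjusted p = 0.0945). This call did not hold without R replicate 2 (0.117), WT replicate 1 (0.0638), WT replicate 2 (0.0868) or WT replicate 3 (0.0912), where the number in brackets is the adjusted p. The gene rhp23, which partners the XPC proteins in budding yeast as Rad23, averaged 207 ± 33.3 CPM in A, 198 ± 42.5 in Q and 184 ± 15.8 in R, against 202 ± 7.52 in WT, and was not called. The list of damage recognition factors has 9 genes and adds some that are not members. On it 1 gene was called in Q (rhp42, 11.1% of the list, against 34.5% of all genes). Another was called in R (rhp14, 11.1%, against 24.2%). SPBC582.10c, a predicted helicase, had 61.5, 38.9 and 44.9 CPM in A, 44.8, 22.2 and 48.3 CPM in Q and 25.6, 20.1 and 24.6 in R, against 48.6, 56.0 and 51.7 in WT. All R libraries lay well below WT, and A overlapped it. SPBC582.10c fell in R (log2 change -1.05, SE 0.24, adjusted p = 0.0122), 1 of the 6 R calls that no single library removed.

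The subunits of TFIIH, which unwinds DNA in both transcription and repair, held calls in both directions. Of 10 genes on the TFIIH list, 8 of them members, 0 in A, 3 in Q and 2 in R were called, beside 34.5% of all genes in Q and 24.2% in R. A small regulatory subunit, tfb5, had 13.8, 9.19 and 17.7 CPM in A, 6.26, 12.2 and 12.6 CPM in Q and 8.69, 6.97 and 17.9 in R, against 45.6, 20.1 and 27.0 in WT. The WT libraries spread from 20.1 to 45.6 CPM, but all Q and R libraries lay below the lowest of them. tfb5 fell in Q (log2 change -1.60, SE 0.43, adjusted p = 0.0156) and in R (log2 change -1.37, SE 0.42, adjusted p = 0.0372), the lowest fold change of any nucleotide excision gene in both, and stood at -1.15 in A without a call (adjusted p = 0.122). The Q call was lost without WT replicate 1 (0.0713), and the R call without A replicate 1 (0.0503), R replicate 1 (0.0898), R replicate 2 (0.132), WT replicate 1 (0.158) or WT replicate 3 (0.0775).

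rad15, the XPD helicase, had 136, 106 and 135 CPM in A, 116, 104 and 125 CPM in Q and 119.7, 152 and 136 in R, against 156, 137 and 148 in WT. rad15 fell slightly in Q (log2 change -0.39, SE 0.12, adjusted p = 0.0246) and the Q and WT libraries lay close, with 125 CPM as the highest in Q and 137 CPM as the lowest in WT. The call failed without Q replicate 2 (0.0744), WT replicate 1 (0.0929) or WT replicate 3 (0.0772). The other helicase, ptr8 or XPB, averaged 176 ± 20.9, 177 ± 16.7 and 170.3 ± 6.79 CPM in A, Q and R, against 187 ± 3.30 CPM in WT, with a log2 fold change of -0.10 in Q (SE 0.09, not called). tfb1, a core subunit, went the other way. It had 47.6, 38.1 and 33.8 CPM in A, 49.9, 40.9 and 55.4 CPM in Q and 27.6, 39.3 and 31.5 in R, against 34.8, 30.4 and 31.6 in WT, and rose in Q (log2 change 0.57, SE 0.15, adjusted p = 0.0154). Significance was lost without WT replicate 2 (0.0612) or WT replicate 3 (0.0566). tfb2, another core subunit, fell in R (log2 change -0.51, SE 0.17, adjusted p = 0.0472). This call was lost in 8 of the 12 fits with 1 library left out, those without A replicate 1 (0.063), A replicate 3 (0.0519), R replicate 1 (0.0733), R replicate 2 (0.147), R replicate 3 (0.0613), WT replicate 1 (0.0855), WT replicate 2 (0.0935) or WT replicate 3 (0.155).

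The list of incision nucleases had a median log2 fold change of -0.19 in A, -0.23 in Q and -0.54 in R. It also holds saw1, a factor that recruits a nuclease in budding yeast, and rad2, a flap endonuclease. rad13, the XPG endonuclease, had log2 fold changes of -0.03, 0.01 and -0.20 in A, Q and R, with SEs near 0.31, and swi10, the ERCC1 homologue, had -0.26, -0.03 and -0.27; neither was called. rad16, the XPF partner of Swi10 and not itself a member, fell in R (log2 change -0.66, SE 0.20, adjusted p = 0.0328). uve1, the ultraviolet damage endonuclease, had 99.1, 65.9 and 108 CPM in A, 73.4, 64.4 and 80.7 CPM in Q and 76.4, 53.0 and 61.1 in R, against 97.7, 89.0 and 98.4 in WT. Its Q and R libraries lay below WT, but neither difference was called (log2 fold change -0.41 in Q, adjusted p = 0.0986, and -0.48 in R, adjusted p = 0.0725). rhp26, the transcription-coupled repair factor CSB and not a member, had log2 fold changes of 0.22, 0.24 and 0.38 in A, Q and R without a call. Of 6 genes on this list, 0 in A, 1 in Q (34.5% of all genes) and 3 in R (24.2% of all genes) were called, all lower. The call in Q was that of saw1, which recruits the XPF nuclease in budding yeast and is not a member (-1.68 in Q and -1.46 in R). In R the calls were saw1, rad16 and rad2, of which only rad16 is an incision nuclease of nucleotide excision repair.

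**Figure D2:**
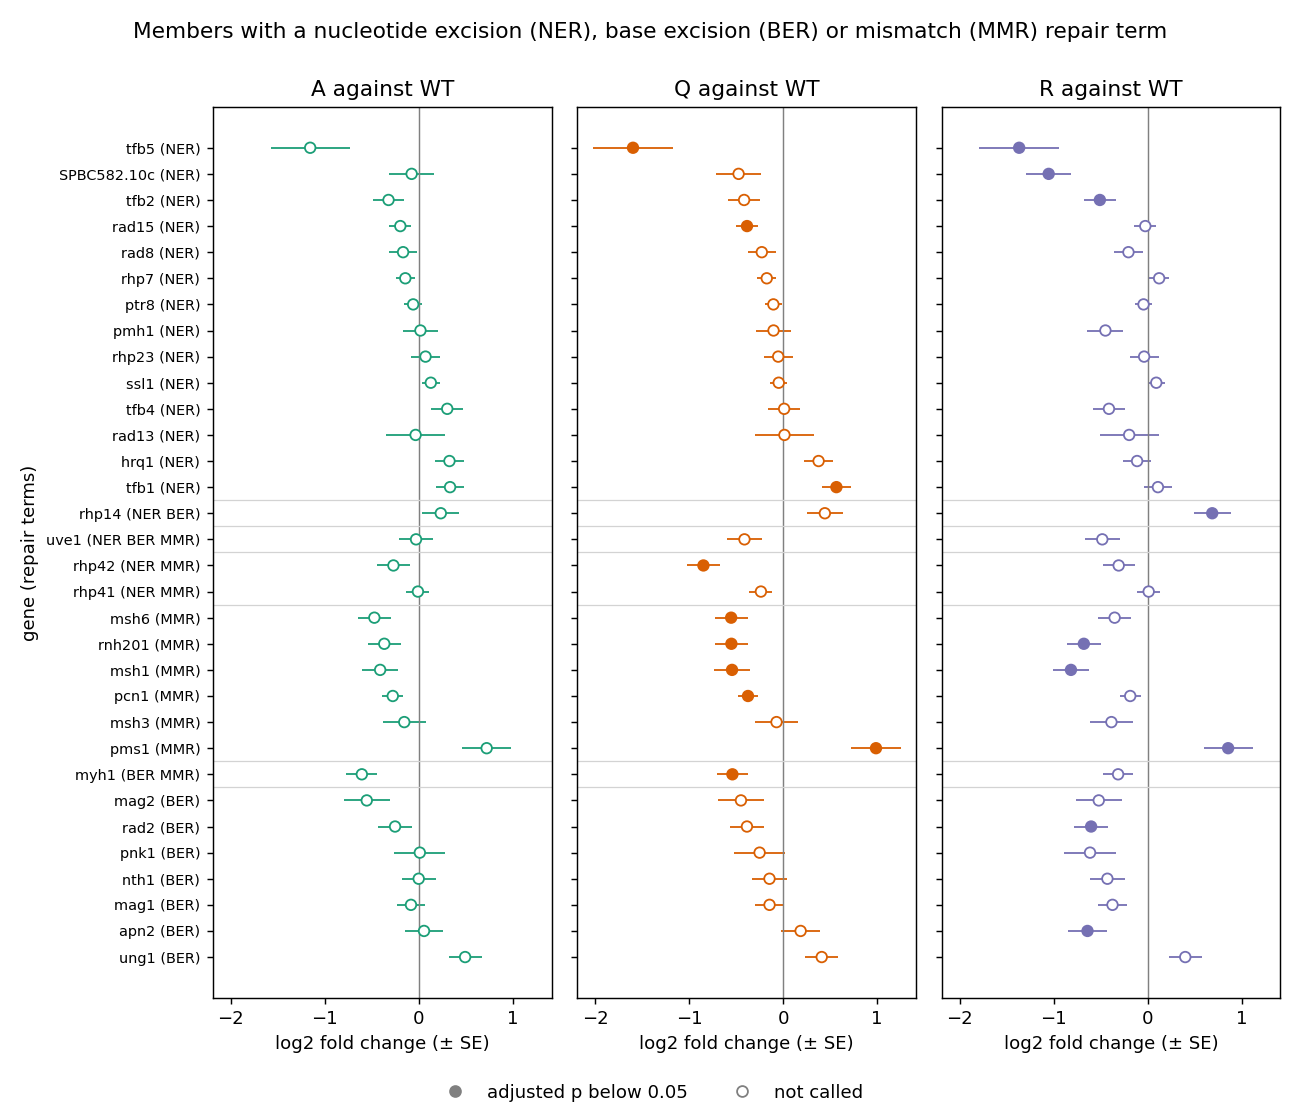
Log2 fold change against WT (horizontal axis) with its SE for 32 members that hold a nucleotide excision, base excision or mismatch repair term (vertical axis, grouped by term), in A, Q and R; filled points were called. The 10 filled points in Q and 9 in R lie on both sides of 0, and none is filled in A.

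Base excision repair genes had their lowest median in R. Of 10 members with the term 0 in A, 1 in Q (10%, against 34.5% of all genes) and 3 in R (30%, against 24.2%) were called. Their median log2 fold change was -0.01 in A, -0.20 in Q and -0.46 in R. Among 6 DNA glycosylases, all members, the 1 call was that of myh1, which removes adenine paired with oxidised guanine. myh1 had 49.99, 33.1 and 44.0 CPM in A, 36.9, 49.0 and 52.0 CPM in Q and 48.4, 46.0 and 54.2 in R, against 64.0, 64.0 and 69.4 in WT. All 9 mutant libraries lay below all WT libraries. myh1 fell in Q (log2 change -0.54, SE 0.16, adjusted p = 0.0257), while its log2 fold change of -0.61 in A just missed the threshold (adjusted p = 0.0573). The Q call was lost without Q replicate 1 (0.0739), WT replicate 1 (0.062) or WT replicate 3 (0.0877). In the reference, rmi1 overlaps 93.6% of myh1 on the opposite strand, and rmi1 fell by 1.11 on the log2 scale in Q as well; the handling of strand is not given in the sources used here, so the reads of the pair cannot be told apart.

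The uracil glycosylase gene ung1 went the opposite way without a call, at 17.1, 11.1 and 15.2 CPM in A, 14.2, 13.2 and 15.2 CPM in Q and 12.1, 15.2 and 11.7 in R, against 10.4, 11.5 and 9.70 in WT (adjusted p = 0.114, 0.0858 and 0.109). nth1, which removes oxidised pyrimidines, had a log2 fold change of -0.43 in R, mag1, which removes alkylated bases, had -0.37, and thp1, a thymine DNA glycosylase homologue, had -0.19. Each was nearer 0 in Q, at -0.15, -0.15 and -0.03, and none was called in any mutant.

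Downstream of the glycosylases, apn2, the main endonuclease at abasic sites, had 14.4, 15.4 and 15.7 CPM in A, 16.6, 11.8 and 23.9 CPM in Q and 8.86, 9.80 and 8.34 in R, against 15.7, 15.5 and 13.7 in WT. The R libraries were below all others, and the Q libraries spread from 11.8 to 23.9 CPM around the WT level. apn2 fell in R (log2 change -0.64, SE 0.21, adjusted p = 0.0433), and the difference of Q over R lay at the threshold without a call (log2 0.83, SE 0.21, adjusted p = 0.05). The R call was lost in 8 of the 12 fits with 1 library left out, those without A replicate 1 (0.055), A replicate 3 (0.0554), R replicate 1 (0.0762), R replicate 2 (0.09), R replicate 3 (0.0968), WT replicate 1 (0.127), WT replicate 2 (0.0968) or WT replicate 3 (0.089). slx8, the ubiquitin ligase partner of the Rfp proteins, overlaps 70.5% of apn2 on the opposite strand in the reference and had a log2 fold change of -0.11 in R.

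rad2, the flap endonuclease that trims displaced strands, had 40.7, 27.4 and 46.1 CPM in A, 38.6, 30.2 and 39.9 CPM in Q and 31.4, 26.2 and 28.2 in R, against 46.7, 45.5 and 47.0 in WT. All R libraries lay below WT, whose libraries agreed closely. rad2 fell in R (log2 change -0.60, SE 0.18, adjusted p = 0.0312). The call was lost without R replicate 2 (0.111), R replicate 3 (0.0613), WT replicate 1 (0.0895), WT replicate 2 (0.0649) or WT replicate 3 (0.0937). In Q rad2 was not called (log2 fold change -0.39, adjusted p = 0.107). pnk1, which restores DNA ends, had 25.4, 13.6 and 24.0 CPM in A, 17.4, 11.7 and 25.9 CPM in Q and 12.7, 11.3 and 15.02 in R, against 23.5, 19.5 and 20.8 in WT, and its log2 fold change of -0.61 in R was not called (adjusted p = 0.116).

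Of 11 mismatch repair members, 0 were called in A, 8 in Q (72.7%, against 34.5% of all genes; 2 higher, 6 lower) and 3 in R (27.3%, against 24.2%; 1 higher, 2 lower). The share in Q was above those of the nucleotide and base excision members. Their median log2 fold change was -0.27 in A, -0.41 in Q and -0.31 in R. pms1, a MutL subunit, had 109, 118 and 83.7 CPM in A, 134, 129 and 124 CPM in Q and 72.9, 180.0 and 78.0 in R, against 65.1, 64.7 and 62.9 in WT. The 3 Q libraries agreed closely at about double the WT level, whereas in R replicate 2 stood far above the other R libraries, which were only slightly above WT. pms1 rose in Q (log2 change 0.99, SE 0.26, adjusted p = 0.0152) and in R (log2 change 0.86, SE 0.26, adjusted p = 0.0354), the highest fold change of the mismatch genes in each mutant, and in A it stood at 0.72 (adjusted p = 0.119). The Q call was lost without WT replicate 3 (0.0531) and the R call without R replicate 2 (0.108), WT replicate 1 (0.0971), WT replicate 2 (0.0868) or WT replicate 3 (0.101).

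msh6, a MutS subunit for base mismatches, had 63.9, 51.9 and 75.3 CPM in A, 65.6, 57.6 and 65.3 CPM in Q and 53.4, 90.6 and 56.9 in R, against 86.8, 95.5 and 89.6 in WT. All A and Q libraries lay below WT, and R replicate 2 alone among the R libraries reached the WT range. msh6 fell in Q (log2 change -0.55, SE 0.18, adjusted p = 0.03). This call did not hold without Q replicate 2 (0.0821), Q replicate 3 (0.0529), WT replicate 1 (0.0651), WT replicate 2 (0.072) or WT replicate 3 (0.077). msh3, a MutS subunit for loops, had log2 fold changes of -0.15, -0.07 and -0.39 in A, Q and R, none of them called. msh1, a MutS homologue that in budding yeast acts in mitochondria, had 24.2, 27.3 and 21.8 CPM in A, 25.6, 17.0 and 27.5 CPM in Q and 19.7, 14.1 and 19.2 in R, against 35.8, 32.5 and 31.6 in WT. All mutant libraries were below WT. msh1 fell in Q (log2 change -0.54, SE 0.19, adjusted p = 0.0456) and in R (log2 change -0.82, SE 0.19, adjusted p = 0.0142). The R call was lost without WT replicate 1 (0.0625), and the Q call without A replicate 1 (0.0594), A replicate 3 (0.0558), Q replicate 1 (0.0547), Q replicate 2 (0.149), R replicate 3 (0.0549), WT replicate 1 (0.137), WT replicate 2 (0.0754) or WT replicate 3 (0.093).

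Among the other genes with the mismatch term, pcn1, the sliding clamp PCNA, had 153, 152 and 137 CPM in A, 157, 131 and 142 CPM in Q and 161, 134 and 156 in R, against 187, 182 and 179 in WT. pcn1 fell in Q (log2 change -0.37, SE 0.11, adjusted p = 0.0227). The call failed without Q replicate 2 (0.0676), WT replicate 1 (0.0741) or WT replicate 3 (0.0657). rnh201, the catalytic subunit of ribonuclease H2, which cuts at ribonucleotides in DNA, fell in Q (log2 change -0.55, SE 0.18, adjusted p = 0.0316) and in R (log2 change -0.68, SE 0.18, adjusted p = 0.0204), with R replicate 2 the lowest library at 26.9 CPM, against 64.3 to 66.2 CPM in WT. Its Q call was lost without Q replicate 1 (0.0784), Q replicate 2 (0.0892), WT replicate 1 (0.0811), WT replicate 2 (0.0617) or WT replicate 3 (0.0897), and its R call without WT replicate 1 (0.0678) or WT replicate 3 (0.0691).

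On the list of 8 genes of mismatch recognition and processing, of which 6 are members, 6 were called in Q (4 higher, 2 lower) and 4 in R (3 higher, 1 lower), beside 34.5% of all genes in Q and 24.2% in R. These include exo1, the exonuclease that removes the mismatched strand and not a member, which had 59.5, 72.4 and 47.0 CPM in A, 81.0, 129 and 112 CPM in Q and 58.5, 143 and 66.5 in R, against 44.1, 48.7 and 45.5 in WT. exo1 rose in Q (log2 change 1.20, SE 0.29, adjusted p = 0.0107) and in R (log2 change 1.03, SE 0.29, adjusted p = 0.0263), where replicate 2 was again the highest. Neither call was followed in fits with 1 library left out. The called genes of the list also include cmb1, a protein that binds cytosine mismatches. It had 78.0, 128 and 72.0 CPM in A, 154, 154 and 111 CPM in Q and 74.9, 171 and 69.2 in R, against 49.1, 64.4 and 56.5 in WT. cmb1 rose in Q (log2 change 1.29, SE 0.32, adjusted p = 0.012), a call kept in all fits with 1 library left out, and in R (log2 change 0.97, SE 0.32, adjusted p = 0.0452), where it was lost without A replicate 1 (0.0537), A replicate 3 (0.05), Q replicate 1 (0.0515), R replicate 2 (0.233), WT replicate 1 (0.143), WT replicate 2 (0.0803) or WT replicate 3 (0.116). The alkyltransferase-like gene atl1, whose protein binds alkylated guanine and passes it to nucleotide excision repair, was lower in every mutant library, with 3.88, 3.32 and 2.57 CPM in A, 3.20, 2.95 and 4.17 CPM in Q and 3.43, 2.07 and 3.99 in R, against 6.58, 6.57 and 6.92 in WT. atl1 fell in Q (log2 change -0.99, SE 0.27, adjusted p = 0.017) and in R (log2 change -0.98, SE 0.27, adjusted p = 0.0248), and the log2 fold change of -1.01 in A was of like size without a call (adjusted p = 0.0567). The Q call was lost without Q replicate 2 (0.0525) or WT replicate 3 (0.0601) and the R call without R replicate 2 (0.0752), WT replicate 1 (0.075), WT replicate 2 (0.0574) or WT replicate 3 (0.0814).

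**Figure D3:**
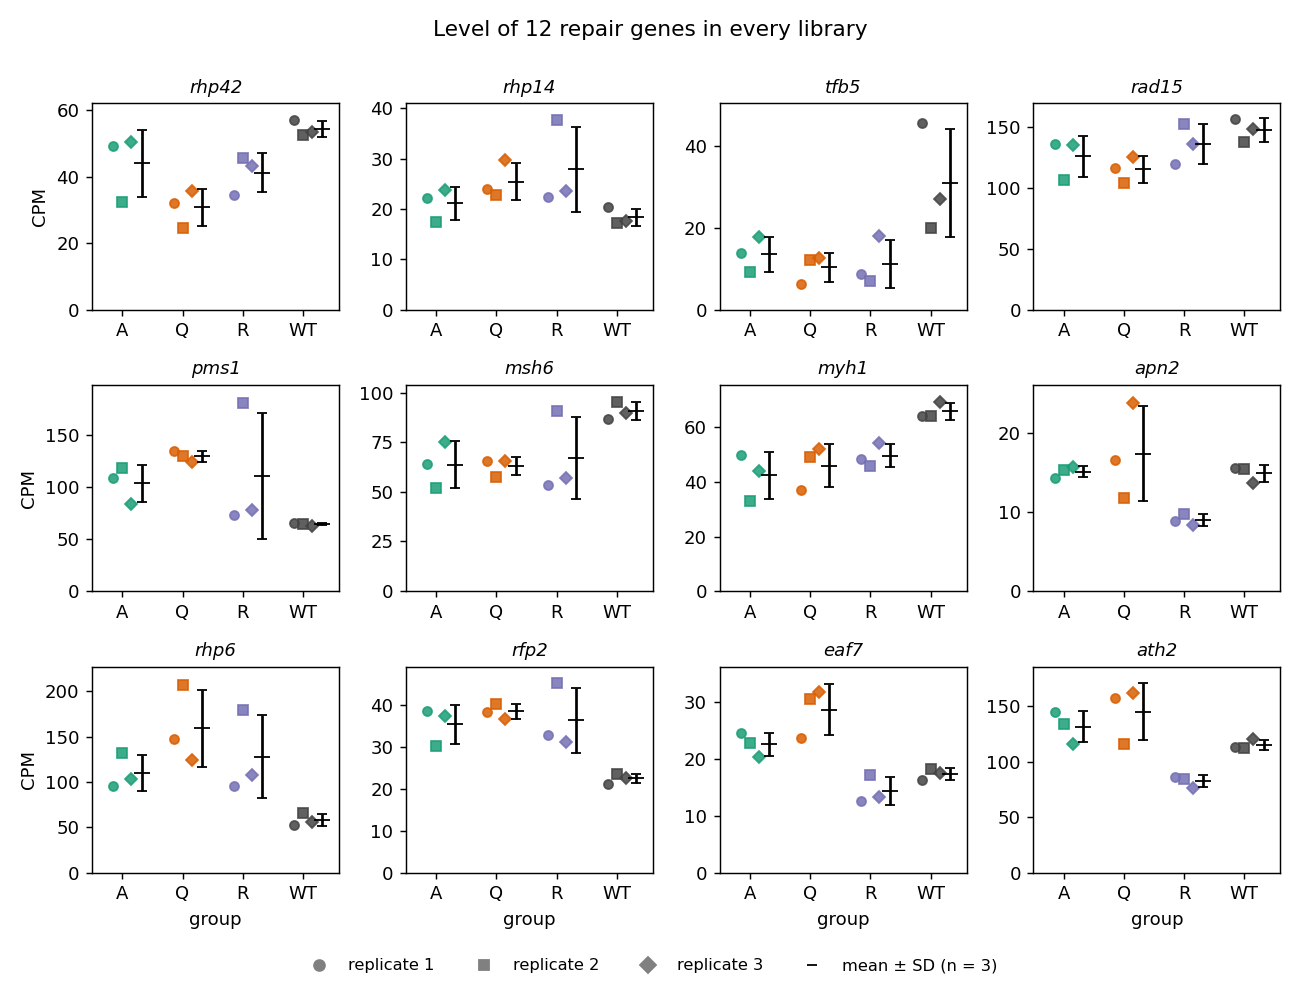
Level in CPM (vertical axis, from 0) of 12 repair genes in each library of A, Q, R and WT, with the replicate number shown by the marker and the mean and SD (n = 3) as bars. R replicate 2 (square) stands far above the other R libraries for pms1, rhp6 and rhp14, and all mutant libraries lie above WT for rhp6 and rfp2 and below WT for myh1.

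Of the 74 members with only the broad repair term 73 were tested, and 3 were called in A (4.11%, against 4.16% of all genes), 33 in Q (45.2%, against 34.5%; 19 higher, 14 lower) and 16 in R (21.9%, against 24.2%; 9 higher, 7 lower). rhp6, the Rad6-type ubiquitin-conjugating enzyme that modifies PCNA in post-replication repair and also histone H2B, had the highest fold change of all members in Q and R. It had 95.2, 132 and 103 CPM in A, 148, 207 and 124 CPM in Q and 95.4, 179.9 and 108 in R, against 52.1, 65.3 and 56.2 in WT. All 9 mutant libraries lay above WT. rhp6 rose in Q (log2 change 1.45, SE 0.25, adjusted p = 0.00417) and in R (log2 change 1.23, SE 0.25, adjusted p = 0.00812), both calls kept whichever library was left out, while A fell just short of a call (log2 fold change 0.97, adjusted p = 0.0504). rev7, a subunit of the translesion polymerase zeta, had low counts, with 2.85, 3.14 and 3.39 CPM in A, 5.15, 4.94 and 4.11 CPM in Q and 3.20, 4.25 and 2.38 in R, against 1.40, 1.86 and 1.94 in WT. It too was above WT in every mutant library, and rose in Q (log2 change 1.43, SE 0.27, adjusted p = 0.005) and in R (log2 change 1.01, SE 0.27, adjusted p = 0.0218), the R call being lost without R replicate 2 (0.0894), WT replicate 1 (0.0938), WT replicate 2 (0.0554) or WT replicate 3 (0.0591).

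Of 10 genes on the post-replication repair list, 7 of them members, 0 in A, 3 in Q (against 34.5% of all genes) and 4 in R (against 24.2%) were called. The calls were higher, a direction given to 18.6% of all genes in Q and 13.2% in R. Beside rhp6 and rev7 these were ubc13 (0.57 in Q and 0.74 in R) and, in R, mms2 (0.50), which together extend ubiquitin chains on PCNA and are not members. The median log2 fold change of the list was -0.02 in A, 0.23 in Q and -0.07 in R.

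Subunits of the ubiquitin ligase for SUMO-modified proteins diverged. rfp2 had 38.5, 30.1 and 37.4 CPM in A, 38.4, 40.2 and 36.7 CPM in Q and 32.7, 45.1 and 31.1 in R, against 21.2, 23.6 and 22.6 in WT. No mutant library overlapped WT. rfp2 rose in A (log2 change 0.69, SE 0.15, adjusted p = 0.0299), in Q (log2 change 0.75, SE 0.15, adjusted p = 0.00548) and in R (log2 change 0.78, SE 0.15, adjusted p = 0.00635). The A call was lost without A replicate 1 (0.0704), A replicate 2 (0.0607), A replicate 3 (0.0922), WT replicate 1 (0.136), WT replicate 2 (0.0917) or WT replicate 3 (0.124). rfp1, a related subunit that like Rfp2 pairs with Slx8, had 68.3, 78.9 and 60.4 CPM in A, 78.0, 47.9 and 71.5 CPM in Q and 56.7, 39.0 and 46.3 in R, against 86.7, 94.6 and 94.7 in WT. rfp1 fell in Q (log2 change -0.52, SE 0.18, adjusted p = 0.0471) and in R (log2 change -0.86, SE 0.19, adjusted p = 0.0101), and its whole length lies opposite irc6, which rose by 0.51 in Q and 0.64 in R on the log2 scale. The R call was kept in all fits with 1 library left out, and the Q call was lost without A replicate 1 (0.0611), A replicate 3 (0.0537), Q replicate 2 (0.161), Q replicate 3 (0.0624), R replicate 3 (0.0594), WT replicate 1 (0.0849), WT replicate 2 (0.0928) or WT replicate 3 (0.123).

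A pair of further members was called in A. lub1, a ubiquitin-binding WD repeat protein, had 119.6, 128 and 123 CPM in A, 138, 112 and 132 CPM in Q and 91.1, 96.5 and 83.7 in R, against 79.3, 89.9 and 80.3 in WT. lub1 rose in A (log2 change 0.61, SE 0.10, adjusted p = 0.0174) and in Q (log2 change 0.59, SE 0.10, adjusted p = 0.00391), while R overlapped WT. The A call was lost without A replicate 2 (0.058), WT replicate 1 (0.0976), WT replicate 2 (0.0627) or WT replicate 3 (0.101). ast1, an asteroid homologue of the XPG nuclease family, had 34.4, 23.1 and 32.7 CPM in A, 23.3, 28.5 and 48.0 CPM in Q and 36.8, 31.1 and 50.7 in R, against 72.1, 65.0 and 55.8 in WT. ast1 fell in A (log2 change -1.06, SE 0.26, adjusted p = 0.0434) and in Q (log2 change -0.98, SE 0.26, adjusted p = 0.0148), and in R it had a log2 fold change of -0.60 (adjusted p = 0.101). Its A call was lost in 8 of the 12 fits with 1 library left out, those without A replicate 1 (0.0745), A replicate 2 (0.143), A replicate 3 (0.0885), Q replicate 2 (0.0501), R replicate 1 (0.0554), WT replicate 1 (0.162), WT replicate 2 (0.112) or WT replicate 3 (0.117), and its Q call without Q replicate 2 (0.0524) or WT replicate 1 (0.0546). In A, 33 of 106 members had an unadjusted p below 0.05, beside 1231 of 5024 genes.

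hat1, a histone acetyltransferase of newly made H4, had 14.4, 14.3 and 13.5 CPM in A, 19.8, 17.1 and 21.1 CPM in Q and 9.09, 14.9 and 9.0 in R, against 9.58, 10.9 and 7.31 in WT. hat1 rose in Q (log2 change 1.03, SE 0.21, adjusted p = 0.00548) and the R libraries other than replicate 2 lay within the WT range. ies2, a subunit of the Ino80 remodeller, had 83.4, 95.3 and 72.6 CPM in A, 112, 158 and 135 CPM in Q and 75.9, 143 and 76.8 in R, against 57.1, 68.0 and 55.2 in WT. ies2 rose in Q (log2 change 1.15, SE 0.22, adjusted p = 0.00532) and in R (log2 change 0.80, SE 0.22, adjusted p = 0.0253), and the R call was lost without R replicate 2 (0.0994), WT replicate 1 (0.0878) or WT replicate 3 (0.0899).

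Complex subunits moved in both directions; these groups were formed from component terms after values were seen. Of 10 members with an Ino80 complex term, 0 were called in A, 6 in Q (4 higher, 2 lower) and 2 in R (1 higher, 1 lower). Of 11 with a NuA4 acetyltransferase term, 0 in A, 9 in Q and 2 in R were called. The calls over all genes were 34.5% in Q and 24.2% in R, and nothing is read from these counts. The 5 risen in Q were alp5, eaf7, rvb2, swc4 and tra2, with log2 fold changes from 0.46 to 1.16, and the 4 fallen were alp13, eaf6, epl1 and yaf9, from -0.70 to -0.43. Of these calls, that of rvb2 was lost without WT replicate 3 (0.0655), that of eaf6 without WT replicate 2 (0.0567) and that of epl1 without Q replicate 2 (0.0627), Q replicate 3 (0.0661), WT replicate 1 (0.0648), WT replicate 2 (0.0649) or WT replicate 3 (0.0749). alp13, a chromodomain subunit, had 103, 103 and 94.2 CPM in A, 106, 90.1 and 97.4 CPM in Q and 97.5, 71.6 and 82.5 in R, against 133, 132 and 135 in WT. Its WT libraries agreed closely and lay above all mutant libraries. alp13 fell in Q (log2 change -0.47, SE 0.13, adjusted p = 0.0154) and in R (log2 change -0.57, SE 0.13, adjusted p = 0.0111). The R call was kept in all fits with 1 library left out, and the Q call was lost without WT replicate 3 (0.0574).

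hhp1, a casein kinase, had 182, 238 and 169 CPM in A, 283, 285 and 210.0 CPM in Q and 181, 319 and 173 in R, against 114, 125 and 109 in WT. hhp1 rose in Q (log2 change 1.14, SE 0.22, adjusted p = 0.00532) and in R (log2 change 1.03, SE 0.22, adjusted p = 0.0097), both kept in all fits with 1 library left out, and A was close to a call (log2 fold change 0.80, adjusted p = 0.0618). SPAC11H11.03c, annotated as a predicted DNA kinase, had 13.7, 13.4 and 11.7 CPM in A, 15.5, 24.2 and 24.4 CPM in Q and 12.6, 28.0 and 16.6 in R, against 8.93, 9.73 and 8.28 in WT. SPAC11H11.03c rose in Q (log2 change 1.23, SE 0.26, adjusted p = 0.00675) and in R (log2 change 1.17, SE 0.26, adjusted p = 0.0119). The R call was lost without WT replicate 1 (0.0521) or WT replicate 3 (0.0535). The lowest fold change with a call in Q among these 74 genes was that of SPCC1442.07c, a predicted ubiquitin and metalloprotease fusion protein, at 34.4, 14.1 and 35.1 CPM in A, 13.5, 5.24 and 15.3 CPM in Q and 13.8, 7.44 and 13.9 in R, against 32.0, 23.6 and 23.5 in WT. SPCC1442.07c fell in Q (log2 change -1.26, SE 0.41, adjusted p = 0.0322). Significance was lost without Q replicate 2 (0.0995), WT replicate 1 (0.106), WT replicate 2 (0.0558) or WT replicate 3 (0.0658).

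Several other members with only the broad term were called, and their values were looked up after the calls were known. Among those that rose in Q, tra2, the scaffold subunit of NuA4, had 76.3, 85.7 and 84.3 CPM in A, 83.3, 135 and 183 CPM in Q and 70.9, 139 and 81.4 in R, against 57.8, 58.3 and 60.2 in WT. Every mutant library lay above WT, and the log2 fold change was 1.16 in Q and 0.80 in R. In R the call was lost without A replicate 1 (0.0533), A replicate 3 (0.0527), R replicate 2 (0.194), WT replicate 1 (0.116), WT replicate 2 (0.102) or WT replicate 3 (0.103). nhp6, an HMG-box protein that bends DNA, had 360.0, 472 and 348 CPM in A, 451, 436 and 443 CPM in Q and 335, 469 and 354 in R, against 269.5, 306 and 254 in WT. It rose in both Q (log2 fold change 0.66) and R (0.57), with the R call lost without R replicate 2 (0.0751), WT replicate 1 (0.0732) or WT replicate 3 (0.0798). In Q, iec5 of Ino80 and swc4 rose by log2 fold changes of 0.69 and 0.81 without a call in R.

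Among those that fell, sir2, a histone deacetylase, had 177, 118 and 193 CPM in A, 115, 72.6 and 159 CPM in Q and 129, 60.7 and 169 in R, against 276, 219.6 and 235 in WT. The call was made in Q (log2 change -1.11, SE 0.34, adjusted p = 0.027), and it did not hold without Q replicate 1 (0.0568), Q replicate 2 (0.097), WT replicate 1 (0.0827) or WT replicate 3 (0.0652). In R the log2 fold change was of like size at -0.92, without a call (adjusted p = 0.0669). ies4, a further Ino80 subunit, had 58.4, 42.2 and 49.6 CPM in A, 42.0, 45.0 and 46.1 CPM in Q and 52.2, 48.9 and 49.7 in R, against 62.1, 63.4 and 63.4 in WT, and was called lower in Q (log2 fold change -0.53). In R the predicted flap endonuclease family gene SPAC12G12.16c had 9.15, 7.44 and 11.6 CPM, beside 15.6, 9.90 and 20.6 in A and 8.55, 8.25 and 22.1 in Q, against 23.1, 20.5 and 20.9 in WT. It was called lower in R (log2 change -1.10, SE 0.36, adjusted p = 0.0455), and the call was lost without A replicate 1 (0.0609), R replicate 1 (0.0845), R replicate 2 (0.155), WT replicate 1 (0.124), WT replicate 2 (0.0842) or WT replicate 3 (0.105). fml2, a predicted helicase, was also called lower in R (log2 fold change -0.92). That call was lost without R replicate 2 (0.0964), WT replicate 1 (0.0903), WT replicate 2 (0.0589) or WT replicate 3 (0.0636), and 90.5% of it lies opposite mde1 in the reference.

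Some other members stood at an extreme of fold change or of level in WT, and of these only tel1 was called. swi1, which protects stalled replication forks, had the lowest fold change of all members in R, with 3.14, 4.07 and 5.42 CPM there, 14.8, 6.76 and 16.3 CPM in A and 4.11, 3.37 and 27.7 CPM in Q, against 15.2, 12.8 and 15.4 CPM in WT. The Q libraries differed among themselves, with replicate 3 above all WT libraries and the others far below. The difference in R was not called (log2 change -1.68, SE 0.65, adjusted p = 0.0751), and rad3 overlaps 84.5% of swi1 on the opposite strand. SPAC1F12.06c, annotated as a predicted nuclease for inosine-containing RNA, had the highest fold change of all members in A at 1.16 (SE 0.44, adjusted p = 0.132), with 18.9, 6.34 and 16.3 CPM in A, against 5.34, 8.0 and 5.69 CPM in WT. tel1 had 15.3, 13.8 and 16.3 CPM in A, 15.3, 11.3 and 27.7 CPM in Q and 7.03, 9.92 and 11.2 in R, against 9.88, 9.48 and 8.54 in WT, and rose in Q (log2 change 0.92, SE 0.27, adjusted p = 0.0234). This call was lost without Q replicate 3 (0.0992), WT replicate 1 (0.0588), WT replicate 2 (0.0661) or WT replicate 3 (0.0793). The most abundant member, SPAC23H3.15c, averaged 5615 ± 1518 CPM in A, 3651 ± 1021 in Q and 4048 ± 1382 in R, against 5191 ± 535 in WT, and was not called.

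Gap filling and nucleotide supply were read from lists made mostly of genes that are not members. Of 19 genes of repair synthesis and ligation, 4 of them members, 0 were called in A, 9 in Q (5 higher, 4 lower) and 3 in R (2 higher, 1 lower), beside 4.16%, 34.5% and 24.2% of all genes. The single-strand binding subunits ssb1 and ssb2 rose in Q by log2 fold changes of 0.68 and 0.76, and cdc1, a subunit of polymerase delta, by 1.15; pcn1 and cdc20, the catalytic subunit of polymerase epsilon (-0.74), fell. For cdc20 the call was lost without Q replicate 2 (0.0942), WT replicate 1 (0.0984), WT replicate 2 (0.0687) or WT replicate 3 (0.069). Nucleotide supply, a list of 4 genes, held 1 call in A (25%, against 4.16% of all genes), 2 in Q (50%, against 34.5%) and 1 in R (25%, against 24.2%). They include dut1, a predicted enzyme that removes dUTP, which had 0 counts in all A and Q libraries and 0.171, 0 and 0.179 CPM in R, against 6.78, 6.01 and 4.59 CPM in WT. The only call beside dut1 was suc22, the small subunit of ribonucleotide reductase, which rose in Q (log2 change 0.79, SE 0.18, adjusted p = 0.00826).

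The mutants were also set against each other, in the main fit, which does not pair libraries by replicate number. Between Q and R, 3 of 106 members were called (2.83%), against 3.64% of all genes. ath2, a predicted XPG-type nuclease, had 158, 116 and 162 CPM in Q and 86.5, 84.8 and 76.3 CPM in R, beside 144, 134 and 116 CPM in A and 113, 113 and 121 CPM in WT. Every R library was below every other library, while the A and Q libraries lay within or above the WT range. It was higher in Q than in R (log2 change 0.69, SE 0.12, adjusted p = 0.00965) and fell in R against WT (log2 change -0.39, SE 0.12, adjusted p = 0.0354). The call was lost without R replicate 2 (0.0869), R replicate 3 (0.0911), WT replicate 1 (0.0903), WT replicate 2 (0.0642) or WT replicate 3 (0.124). eaf7, a NuA4 subunit, had 23.6, 30.6 and 31.8 CPM in Q and 12.6, 17.2 and 13.2 CPM in R, beside 24.5, 22.8 and 20.4 CPM in A and 16.3, 18.3 and 17.6 CPM in WT, and was higher in Q than in R (log2 change 0.89, SE 0.16, adjusted p = 0.0126). The third was hta1, 1 of 2 genes for histone H2A.

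hta1 had 226, 245 and 250.1 CPM in Q and 423, 351 and 439 CPM in R, beside 358, 228 and 365 CPM in A and 429, 424 and 432 CPM in WT. The R libraries overlapped WT and all Q libraries lay far below both. It was lower in Q than in R (log2 change -0.87, SE 0.17, adjusted p = 0.0162) and fell in Q against WT (log2 change -0.86, SE 0.17, adjusted p = 0.00528). In Q htb1 fell as well (log2 fold change -1.42). In A and R the genes differed: htb1 rose (1.75 and 0.82), while hta1 had -0.40 and 0.01 without a call. The other H2A gene, hta2, is 86.4% identical over 38.9% of hta1 and had a log2 fold change of -0.17 in Q and 0.30 in R without a call. The Q over R differences were lost without R replicate 3 (0.0594) for ath2, R replicate 1 (0.0637) or R replicate 3 (0.0673) for eaf7 and Q replicate 1 (0.0604), Q replicate 3 (0.0525), R replicate 1 (0.0646) or R replicate 3 (0.0725) for hta1. The 3 calls became 8 without Q replicate 2, 12 without R replicate 2, 1 without R replicate 1 and 0 without R replicate 3.

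Between Q and A, 0 members were called, against 0.0398% of all genes in edgeR, and 10 of 106 members had an unadjusted p below 0.05, beside 926 of 5024 genes. DESeq2 called 1 member there, SPCC1442.07c, lower in Q, against 2.31% of all genes. Between R and A, 1 of 106 members was called (0.943%), against 2.47% of all genes. It was ath2, lower in R (log2 change -0.61, SE 0.12, adjusted p = 0.0192). This call did not hold without A replicate 1 (0.085), R replicate 2 (0.052) or R replicate 3 (0.0892). With the replicate number as a block, 6 members were called between R and A, all lower in R. They were ath2, eaf7, tfb4, SPBC582.10c, lub1 and SPCC1442.07c. The share of all genes called with the block is not given. The block called ath2, eaf7 and hta1 between Q and R, as the fit without it did. The 1 call between R and A became 0 without A replicate 1 or R replicate 2 or 3, 3 without A replicate 2, and 6, 7 and 5 without Q replicates 1, 2 and 3. Between Q and A, 3 members were called without A replicate 2 and 1 without Q replicate 1.

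Many repair genes overlap a neighbour. In the ASM294v3 reference 58 of the 107 members overlap another protein-coding gene, and 16 do so over at least 50% of their length. These 16 include spt16, which was not tested. Of them 6 were called in Q, beside 44 of 106 members tested and 34.5% of all genes. In R 3 were called, beside 25 of 106 members tested and 24.2% of all genes. rik1, a heterochromatin factor related to the damage-binding protein DDB1, rose in Q (log2 change 1.38, SE 0.31, adjusted p = 0.00833), and 91.9% of it lies opposite SPCC11E10.09c, which rose by 2.36 in Q on the log2 scale. SPCC1442.07c lies opposite pre8 over 85.3% of its length, swc4 opposite trm61 over 67.2%, iec5 opposite mns1 over 58.3% and pnk1 opposite mpp10 over 58.1%. For such members the counts hold reads that cannot be assigned to a strand from the sources used here.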

How the data were processed

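RNA-seq of 12 libraries (3 each of A, Q, R and WT; groups from sample titles and genotype labels) was analysed. Per the labels, mRNA was enriched with oligo(dT) from Trizol RNA, and tools listed in the submitters' processing notes, with no role or version, are RSEM, HISAT2, StringTie, Bowtie2, DESeq2 and fastp. How strand was handled is, like build and annotation, not given in the sources used here. For every gene and library the authors deposited a whole-number count and an FPKM value, per the file headers. The authors' deposited log2 ratios, p-values and FDR values were used for 1 count only. CPM here is count over the deposited total.

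Counts were tested with edgeR 4.0.16 (R 4.3.3): filterByExpr (5024 genes kept, 136 left out), TMM, 1 quasi-likelihood fit of 4 groups, 6 contrasts, Benjamini-Hochberg over all genes, called below 0.05, two-sided. SEs are approximate, from the log2 fold change and F. The fit was tested on simulated data. Alternatives were DESeq2 1.42.0, RLE scaling, other filters, fewer libraries, a replicate block and limma 3.58.1 on log2(FPKM + 1) or log2(FPKM + 0.1). Same-numbered libraries deviated together between Q and R (correlations 0.32, 0.40 and 0.29) and between R and A (0.18, 0.32 and 0.19). The main fit does not pair libraries in any comparison. For Q against R and R against A the calls of the replicate block are therefore given beside it. Overlaps came from the ASM294v3 annotation, and copies of genes from BLAST 2.17.0. Members and lists were chosen with earlier results of these data known. Named are the 8 called members of lowest p in each comparison, defining genes of each pathway and the extremes of each class; other named genes, such as tfb2, rnh201, cmb1, atl1, rik1 and cdc20, and htb1 were chosen after their values were seen. Some genes of the lists are not reported by name here and are left out of the figures, but stay in the counts.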

Additional observations from a re-analysis of the deposited data

Results flagged for a closer look

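The difference between 2 mutants was itself called for 3 members. ath2 was higher in Q than in R by a log2 fold change of 0.69 (adjusted p = 0.00965, edgeR), with 0.30 in Q and -0.39 in R against WT. It was also lower in R than in A, by -0.61 (adjusted p = 0.0192, edgeR), with 0.22 in A against WT. eaf7 was higher in Q than in R by 0.89 (adjusted p = 0.0126, edgeR), with 0.70 in Q and -0.19 in R. hta1 was lower in Q than in R, with a log2 fold change of -0.87 (adjusted p = 0.0162, edgeR), and against WT it stood at -0.86 in Q and at 0.01 (SE 0.16) in R, which is no direction. Of these values against WT only eaf7 in Q, hta1 in Q and ath2 in R were called.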

How the results depend on the processing

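The counts of calls in this section are of members, without the share of all genes called under the same setting. A rise or fall is therefore not read as particular to repair genes. The 3 calls of A became 11 with DESeq2, 30 with only A and WT in the fit, 10 with the replicate block, 5 with limma on log2(FPKM + 1), 17 without the 3 mutant replicates 2, and 0 to 18 with 1 library left out. With 1 library left out, Q gave 23 to 46 calls (44 with all) and R 6 to 30 (25 with all); other settings moved neither by over 1.5 times. The 3 calls between Q and R became 7 with DESeq2, 1 with only those groups, 23 without the mutant replicates 2, and 0 to 12 with 1 library left out. Between Q and A the 0 calls became 1 with DESeq2, 2 with the replicate block, 9 without the mutant replicates 2, and 0 to 3. Between R and A the 1 call became 9 with DESeq2, 2 with RLE, 0 with only those groups, 6 with the replicate block, 7 without the mutant replicates 2, and 0 to 7. The replicate block gave 47 calls in Q and 34 in R; in the comparisons with WT and between Q and A the libraries share only a number. The cause was not tested, beyond the fewer libraries in some fits. Of 2919 values of named members under these settings, 2684 kept direction and side of the threshold, 150 lost a call, 85 gained one and 0 changed direction with a call. These values include results that had no call, and fits without a library of a group not compared. The share kept is therefore no measure of how firm the calls are. By the authors' deposited table, an FDR under 0.05 alone held for 36 members in A, 51 in Q and 40 in R, and with a 2-fold change for 4, 13 and 10. The share of all genes within these limits was not counted, so nothing particular to the members is read from them.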
